A study of Mus musculus with 6 samples.

Results

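Transferrin and the other genes considered here carry, take up, store, export or sense iron in mammary tumors of mice. They are the 10 genes Trf, Ltf, Lcn2, Tfrc, Steap4, Slc11a2, Fth1, Ftl1, Slc40a1 and Ireb2, taken by symbol from the 55385 genes of each table, and all 10 were found. Trf was chosen by its expected counts, the highest of any gene in most libraries, so its rank is described and not tested. The others were chosen for their function, with earlier results of these data known.

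By the paper's account RNA was sequenced from tumors of 3 control mice and 3 mice fed DMHCA, a steroid that activates the nuclear receptor LXR. The comparison asks which transcripts differ with the drug. All mice were female NeuT/ATTAC animals, which combine an activated rat ErbB2 gene driven by MMTV with an FKBPv-caspase-8 fusion driven by the FABP4 promoter and so directed to fat. The dimerizer AP20187, given by injection at 0.4 mg/kg 3 times per week from 6 weeks of age, activates the caspase and replaces part of the mammary fat with fibrotic tissue. The paper describes the control tumors as coming from AP20187-treated mice, while the label of these libraries can also be read as vehicle alone, and the labels name the tissue as mammary gland fibrosis. From 8 weeks of age the treated mice ate a diet with 0.05% DMHCA, stated as 100 mg/kg. The epithelial markers Epcam, Krt8, Krt18, Krt19 and Cdh1 summed to 2930.3 to 3591 TPM (a share of all transcripts, corrected for transcript length) in control and 4063 to 4422 TPM in DMHCA libraries. Krt19 alone ranged from 4.73 to 435 TPM in controls and from 1.51 to 20.1 TPM after DMHCA. In counts scaled to 1 common library size, 1 of the 5, Krt8, lay higher without overlap, as did 13.8% of all genes tested, and 0 lay lower. Their median log2 fold change, DMHCA against control, was -0.09.

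Expected counts summed to between 46358654 and 63420620 per library. Between DMHCA libraries 1 and 3 the biological coefficient of variation was 0.0327, against 0.376 to 0.579 in the other 5 pairs within a group. They were therefore summed and counted as 1 sample, which leaves 3 control and 2 DMHCA samples. The paper states 3 mice per group, but no label ties a library to an animal. Whether DMHCA libraries 1 and 3 come from the same tumor is not given. The p-values therefore measure the spread between these samples. Normalized counts are scaled to 1 common library size and compare a gene between libraries, whereas TPM compares genes within a library.

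Iron travels in body fluids bound to transferrin, is taken into cells when the loaded protein binds its receptor, and is reduced and moved out of the endosome before use. Ferritin, a shell of heavy and light chains, stores iron in the cytoplasm, and ferroportin returns it to the outside. A pair of related RNA-binding proteins, one of which is encoded by Ireb2, bind hairpins called iron responsive elements when iron is scarce, which holds back translation of ferritin and ferroportin and protects the transferrin receptor transcript from decay. The mammary epithelium makes transferrin and lactoferrin for milk. Lactoferrin and lipocalin 2 are also stored in neutrophil granules and withhold iron from bacteria.

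The hairpins that link these transcripts to the Ireb2 protein were located in the reference transcripts of GENCODE M21 (GRCm38). The motif searched was a bulged C, then 5 stem bases, the 6-base loop CAGTGN and 5 bases that pair with the stem bases before the loop (G with T allowed), on the transcript strand alone. Of the coding genes with an annotated 5′ UTR, 0.148% (31 of 20916) held a match there, and 0.594% (129 of 21707) held one in the 3′ UTR. Matches were found in 4 of the 10 genes. They are shown because they mark the transcripts that hold this strict form of the element. The bulged C and the loop are in capitals, and 29 bases are printed for each.
Fth1, 5′ UTR, chr19:9982732-9982760, plus strand: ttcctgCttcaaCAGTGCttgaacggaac
Ftl1, 5′ UTR, chr7:45459779-45459807, minus strand: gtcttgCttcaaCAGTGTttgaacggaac
Slc40a1, 5′ UTR, chr1:45925465-45925493, minus strand: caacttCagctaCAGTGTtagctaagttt
Tfrc, 3′ UTR, chr16:32631219-32631247, plus strand: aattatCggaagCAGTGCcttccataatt
Tfrc, 3′ UTR, chr16:32631598-32631626, plus strand: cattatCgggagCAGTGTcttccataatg
Tfrc, 3′ UTR, chr16:32631663-32631691, plus strand: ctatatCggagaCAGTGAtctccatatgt
Tfrc, 3′ UTR, chr16:32631710-32631738, plus strand: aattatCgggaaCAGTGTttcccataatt
The heavy and light ferritin chains each held 1 match with the same upper stem, and Tfrc held 4. For the other 6 genes, Slc11a2 among them, these letters were not found in the annotated UTRs. A hairpin with another loop or with a mismatch in its stem would not be found, in these genes or in Tfrc.

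Levels ran over more than 3 orders of magnitude among the 10 genes. In controls Trf had the highest mean, 22342 ± 7694 TPM (SD, n = 3), and it was followed by Lcn2 with 11018 ± 4025 TPM, Fth1 with 4078 ± 2015 TPM, Ftl1 with 1725 ± 504 TPM and Ltf with 1198 ± 1702 TPM. Tfrc (66.1 ± 28.1 TPM), Slc40a1 (25.4 ± 10.7 TPM), Ireb2 (20.3 ± 3.10 TPM), Slc11a2 (12.02 ± 3.72 TPM) and Steap4 (10.4 ± 8.06 TPM) had lower means. The mean of Ltf rests on control library 3, and in control library 2 Ltf (34.3 TPM) was below Tfrc (92.7 TPM). After DMHCA the order of the first places was Trf (16757 ± 1719 TPM; SD, n = 2), Lcn2 (10324 ± 2510.2 TPM), Ftl1 (2061 ± 655 TPM) and Fth1 (1176 ± 48.8 TPM). Tfrc followed with 74.7 ± 20.9 TPM, and Ltf, at 57.9 ± 32.3 TPM, came after it. Ireb2 (23.2 ± 3.96 TPM) and Slc11a2 (21.04 ± 6.42 TPM) were neighbours in that group, with Slc40a1 at 14.9 ± 6.07 TPM and Steap4 last at 3.69 ± 0.509 TPM. In controls the means of Trf and Lcn2, of Fth1 and Ftl1, of Ftl1 and Ltf, of Ltf and Tfrc, of Slc40a1 and Ireb2, and of Slc11a2 and Steap4 differed by less than the sum of their SDs. After DMHCA the same held for Tfrc and Ltf, Ltf and Ireb2, Ireb2 and Slc11a2, and Slc11a2 and Slc40a1.

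None of the 10 genes passed the test. In edgeR's quasi-likelihood test on 3 control and 2 DMHCA samples, 0 had an adjusted p under 0.05, as did 0 of all 19427 genes tested (0% called), and all 10 passed the filter on low counts. Over all genes the smallest adjusted p was 0.644. At an unadjusted p under 0.05 there were 3 of the 10, Fth1, Slc40a1 and Ltf, all lower with DMHCA, where 7.61% of all genes had such a p, 3.53% of them higher and 4.08% lower as a share of all genes. The log2 fold change was below 0 for 7 genes and above 0 for 3, with a median of -0.38, against -0.03 over all genes tested. The groups did not overlap for 1 gene that was higher, Slc11a2, and for 1 that was lower, Fth1, while 13.8% of all genes lay higher and 12.2% lower without overlap, 25.9% in either direction. The share of the 10 genes without overlap was thus not above that of all genes. Run on the 6 libraries as separate samples, the tool and design of the paper, DESeq2 called 1 of the 10 genes at an adjusted p under 0.05, Fth1, and 4.45% of all genes. On the 5 samples it called 0 of the 10, and 1.22% of all genes. Without summing, edgeR on the 6 libraries left 5 of the 10 genes and 15.6% of all genes at an unadjusted p under 0.05. In bulk tissue, fewer cells of a type and less RNA per cell cannot be told apart.

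**Figure D1:**
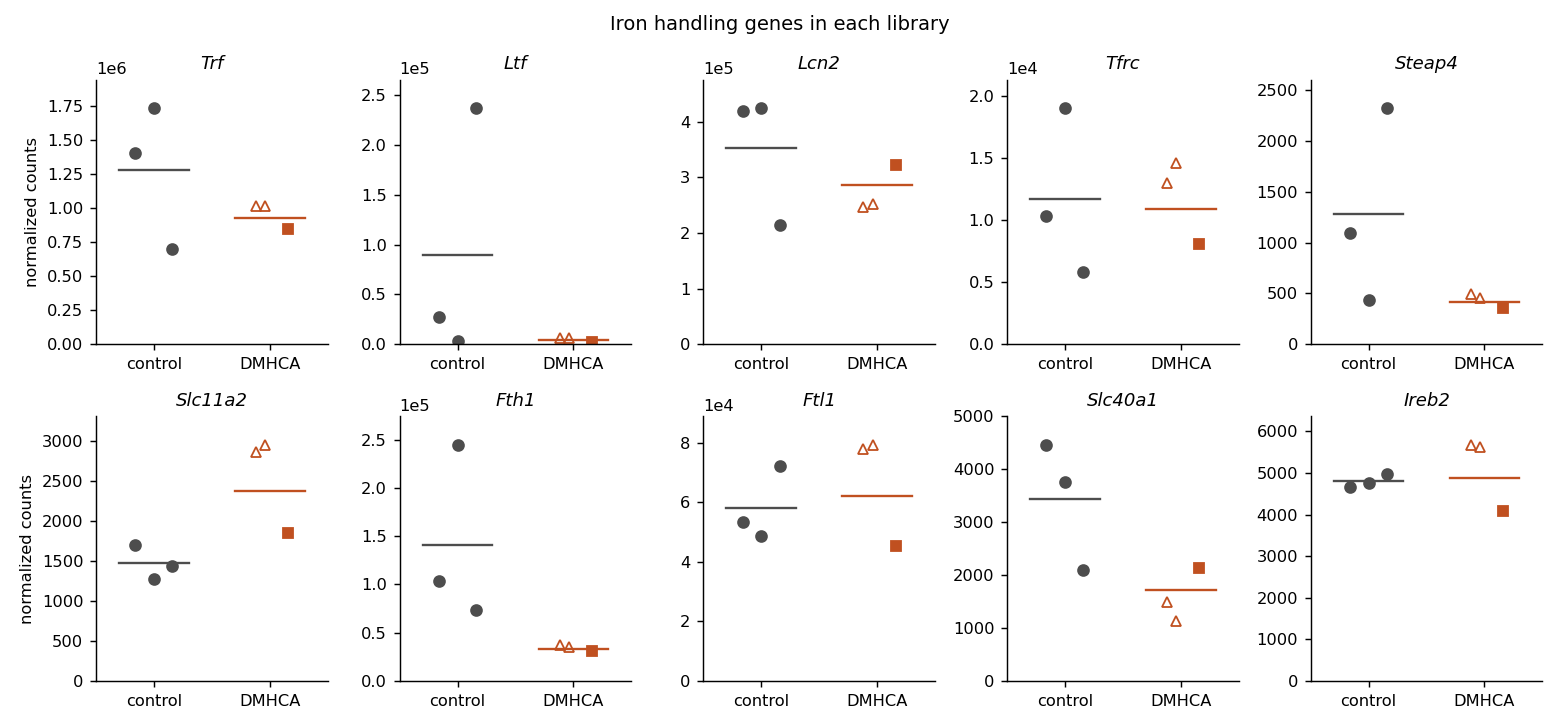
Normalized counts (vertical axes, from 0, each panel with its own scale) of the 10 genes in control libraries 1 to 3 (circles, left to right), in DMHCA libraries 1 and 3 (open triangles, counted as 1 sample) and in DMHCA library 2 (squares). Horizontal lines are means over 3 control and 2 DMHCA samples, and only Fth1 and Slc11a2 show groups that do not overlap.

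**Figure D2:**
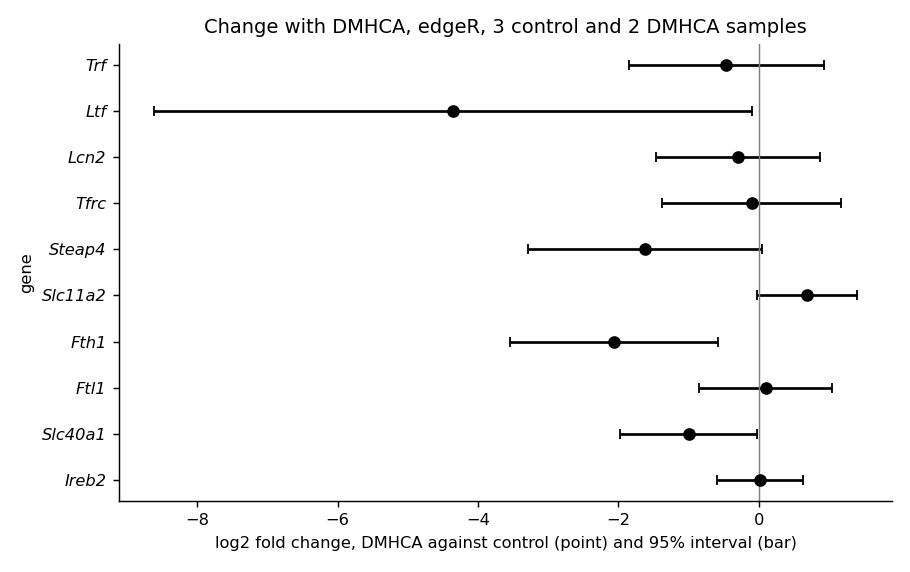
Log2 fold change of each gene, DMHCA against control (horizontal axis, points), with its 95% interval (bars) from edgeR on 3 control and 2 DMHCA samples. The intervals of Fth1, Slc40a1 and Ltf lie below 0, and that of Ltf is the widest, from -8.61 to -0.10.

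Of the storage genes, Fth1 was lower in every DMHCA library than in any control, and Ftl1 overlapped. Fth1 (ENSMUSG00000024661, chromosome 19, 9980598 to 9985098) encodes the heavy chain, which oxidizes iron as it enters the shell. Its normalized counts were 103198, 244603 and 73355 in the control libraries, in the order of their numbers, and 37084, 31012 and 35053 in DMHCA libraries 1, 2 and 3. Every control library lay above every DMHCA library, and the controls differed among themselves far more than the DMHCA libraries did. The mean went from 140385 ± 91480.0 (SD, n = 3) to 33556 ± 3597 (SD, n = 2), which edgeR put at -2.06 on the log2 scale (standard error 0.62, 95% interval -3.54 to -0.59, adjusted p = 0.644, unadjusted p = 0.0135). DESeq2 on the 6 libraries gave -2.03 with an adjusted p of 0.0027, and DESeq2 on the 5 samples an adjusted p of 0.0605. Control library 2 held the most Fth1, and without it edgeR's log2 fold change was -1.40 (unadjusted p = 0.0114).

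Ftl1 (ENSMUSG00000050708, chromosome 7, 45457944 to 45459884) encodes the light chain, which aids the laying down of the iron core. It had 53461, 48569 and 72131 normalized counts in the control libraries and 77938, 45513 and 79397 in DMHCA libraries 1, 2 and 3. DMHCA library 2 lay below all controls and the other DMHCA libraries above them. DMHCA against control, the log2 fold change was 0.10 (standard error 0.40, 95% interval -0.85 to 1.05, adjusted p = 0.955), and it was -0.02 without control library 2. The ratio of Fth1 to Ftl1 in TPM was 2.02, 5.27 and 1.06 in control libraries 1, 2 and 3 and 0.498, 0.715 and 0.462 in DMHCA libraries 1, 2 and 3. Heavy chain transcripts thus outnumbered light chain transcripts in every control library and were outnumbered in every DMHCA library. With 3 samples against 2, an exact permutation test of this ratio could not give a two-sided p below 0.2, so it is left as a description. Both genes have processed copies elsewhere in the genome, but 14 further genes whose symbols begin with Fth or Ftl held at most 319 expected counts in any library, in Ftl1-ps1, the only one of them with at least 10. Exons of Ftl1 overlap Gm10252 on the opposite strand, which held 7 to 29 counts, and the miRNA gene Gm22133, at 0.

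**Figure D3:**
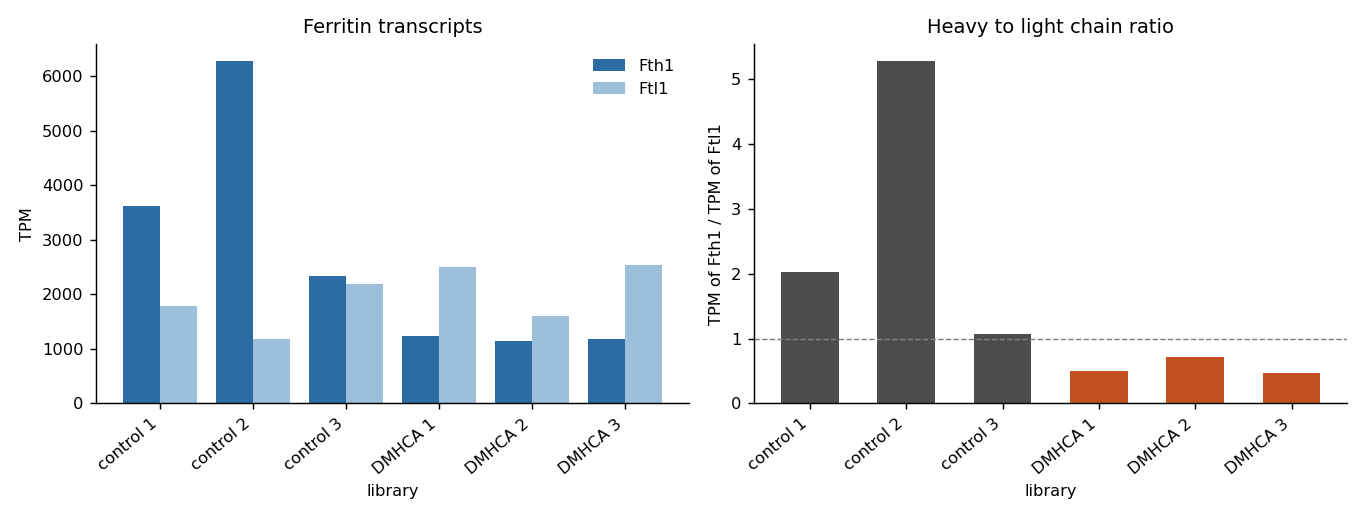
Left, TPM (vertical axis) of Fth1 and Ftl1 in each library. Right, the ratio of the TPM of Fth1 to that of Ftl1 in each library (control in grey, DMHCA in orange), with a dashed line at 1. All control libraries lie above the line, the lowest at 1.06, and all DMHCA libraries lie below it, the highest at 0.715.

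Slc40a1 (ENSMUSG00000025993, chromosome 1, 45908068 to 45926523) encodes ferroportin, the iron exporter, and carries the same kind of 5′ element as the ferritin genes. It had 4465, 3767 and 2102 normalized counts in the control libraries and 1497, 2134 and 1129.5 in DMHCA libraries 1, 2 and 3. Control library 3 and DMHCA library 2 were almost equal, and the other libraries fell on either side of them. By edgeR the log2 difference was -0.997 (standard error 0.41, 95% interval -1.97 to -0.02, unadjusted p = 0.0459, adjusted p = 0.644). Without control library 1 it was -0.77 (unadjusted p = 0.124).

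Macrophages that clear red cells are a known source of ferroportin and ferritin. The macrophage markers Adgre1, Csf1r, Cd68, Mrc1, C1qa, C1qb, C1qc and Vsig4 summed to 773 to 943 TPM in control and 657 to 833 TPM in DMHCA libraries, so the groups overlapped. Of these 8 markers, 1 lay higher and 1 lower without overlap. The erythroid list was led by the hemoglobin genes Hba-a1, Hba-a2, Hbb-bs and Hbb-bt, and summed to 3665 to 5458 TPM in controls and 2168 to 3120.2 TPM after DMHCA. By normalized counts every DMHCA sample lay lower than every control sample in 5 of its 8 genes, Slc4a1 among them, and higher in 1, Klf1, where 12.2% of all genes lay lower and 13.8% higher. Both Slc4a1 and Klf1 were at or below 0.87 TPM in every library. Adipocyte markers summed to 124 to 920 TPM in controls and 69.9 to 70.7 TPM after DMHCA. The part of these cell types in the values of Fth1 and Slc40a1 was not tested.

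Transferrin itself, Trf (ENSMUSG00000032554, chromosome 9, 103204001 to 103230444), is the iron carrier of plasma and is also secreted into milk. It held the most expected counts of any gene in 5 of 6 libraries and came after Csn3 (kappa casein) in control library 3. Its share of all counts was 2.70%, 2.89% and 1.40% in control libraries 1, 2 and 3 and 1.88%, 1.58% and 1.87% in DMHCA libraries 1, 2 and 3. At this depth the 95% Wilson interval of each share is narrow, as that from 2.70% to 2.71% in control library 1 shows, and it covers counting error only. By TPM the gene ranked first in control libraries 1 and 2 and in DMHCA library 2, and behind 1 other gene in the rest.

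Normalized counts of Trf were 1403667, 1735413 and 702746 in the control libraries and 1015013, 844605 and 1013639 in DMHCA libraries 1, 2 and 3. Both DMHCA samples lay inside the range of the controls, whose lowest library was number 3. In edgeR the log2 fold change was -0.46 (standard error 0.58, 95% interval -1.85 to 0.93, adjusted p = 0.821), and -0.18 without control library 2 or -0.76 without control library 3. The liver is the main source of plasma transferrin. The hepatocyte markers Alb, Apoa1, Ttr, Apoh and Serpina1a summed to between 0.46 and 5.24 TPM, and their part in the values of Trf was not tested. Exons of Trf overlap those of the locus Gm20425 on the same strand in GENCODE M21, for which no row was used here.

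The genes whose pattern over the 5 samples was most like that of Trf were Ppp1r36, C330021F23Rik, Vav3, Acsf2 and Snhg18. Likeness was measured as the root mean square difference of centred log2 normalized counts, among 14134 genes with a mean of at least 100 counts, and it was 0.06 for Ppp1r36 and 0.13 for Snhg18. Vav3, a guanine nucleotide exchange factor, had 1598, 2288 and 1007 normalized counts in the control libraries and 1384, 1109.9 and 1248 in DMHCA libraries 1, 2 and 3. All were thus highest in control library 2 and lowest in control library 3, at levels far below Trf. With 5 samples, likeness of this kind is a description.

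Lactoferrin, Ltf (ENSMUSG00000032496, chromosome 9, 111019271 to 111042767), is a milk and granule protein that holds iron tightly. It varied most among controls of the 10 genes. There were 27398, 3049 and 237024 normalized counts in the control libraries and 6278, 2414 and 6344 in DMHCA libraries 1, 2 and 3. Control library 3 stood far above the rest, and control library 2 lay among the DMHCA libraries. In TPM the highest control held 92.0 times the level of the lowest. Its fold change on the log2 scale was -4.35 (standard error 1.78, 95% interval -8.61 to -0.10, unadjusted p = 0.0463, adjusted p = 0.644 by edgeR), and it was -1.81 without control library 3 (unadjusted p = 0.1098).

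Some casein transcripts were distributed over the libraries in a similar way. Csn2 (beta casein) had 766, 15.2 and 13320.4 TPM in control libraries 1, 2 and 3 and 62.6, 19.5 and 50.3 TPM in DMHCA libraries 1, 2 and 3, and Ltf had 407, 34.3 and 3151 TPM and 80.7, 35.1 and 80.8 TPM in the same libraries. In both genes control library 3 was highest, control library 1 followed, and control library 2 and DMHCA library 2 were the lowest. Csn3 did not follow that order, with 12114 to 23866 TPM over all libraries. Nor did Lalba (alpha-lactalbumin), with 759.8, 23.6 and 1424 TPM in the controls and 3799 TPM, 36.7 TPM and 3962 TPM after DMHCA, or Xdh, with 58.4 to 249 TPM in controls and 196 to 211 TPM after DMHCA. Of the 11 milk protein genes 3 were lower with an unadjusted p under 0.05, as were 4.08% of all genes, 0 were higher with one, and all 11 overlapped between the groups. B cell markers were also highest in control library 3, at 302 TPM in sum against 1.35 to 36.8 TPM elsewhere, and so were T cell markers, at 143 TPM against 1.35 to 15.7 TPM. Their part in the values of Ltf was not tested. The ratio of Trf to Ltf in TPM was 65.5, 785 and 4.27 in control libraries 1, 2 and 3 and 224, 443 and 221 in DMHCA libraries 1, 2 and 3, so control library 3 had both the least Trf and the most Ltf.

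Lcn2 (ENSMUSG00000026822, chromosome 2, 32384633 to 32388252) encodes lipocalin 2, which binds the siderophores that carry iron for bacteria. Its normalized counts were 418977, 424392 and 214170.0 in the control libraries and 247369, 322778 and 251483 in DMHCA libraries 1, 2 and 3. All DMHCA libraries lay between control library 3 and the other controls. A log2 fold change of -0.30 was fitted (standard error 0.49, 95% interval -1.47 to 0.87, adjusted p = 0.863). Granule genes that define neutrophils were close to 0 in every library, with Mpo, Elane, Camp and Ngp at most at 0.99 TPM and Ly6g at most at 0.14 TPM. Of the 10 neutrophil markers 7 were tested, with a median log2 fold change of -1.47, and Retnlg and S100a9 were lower without overlap, as 12.2% of all genes were. S100a9 had 14.2 to 24.3 TPM in controls and 3.74 to 12.9 TPM after DMHCA, Retnlg, Cxcr2 and Csf3r stayed at or below 2.81 TPM, and S100a8 reached 199 TPM in DMHCA library 2. The list summed to 33.5 to 59.5 TPM in controls and to 12.9, 216 and 11.7 TPM in DMHCA libraries 1, 2 and 3. The part of neutrophils in the values of Lcn2 was not tested.

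The tables also hold RSEM's mean length of a gene's transcripts, weighted by their estimated shares. For Trf, with 9 transcripts in the tables, it was 1556, 1427 and 1435 bases in control libraries 1, 2 and 3 and 1599, 1684 and 1613 bases in DMHCA libraries 1, 2 and 3. For Ltf, with 12 transcripts, it was 1935.5, 1902 and 1993 bases in the controls and 2149.5, 2085 and 2164 bases after DMHCA. In both iron carriers the DMHCA libraries had the longer mean without overlap, as did 11.4% of 12311 genes with more than 1 transcript and a mean of at least 100 counts, while 15.1% were shorter without overlap. Of the other 8 genes, 0 lay apart in this measure, and Steap4 has 1 transcript. These lengths are estimates from the same reads and were looked at after their values were seen, so no test is given.

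**Figure D4:**
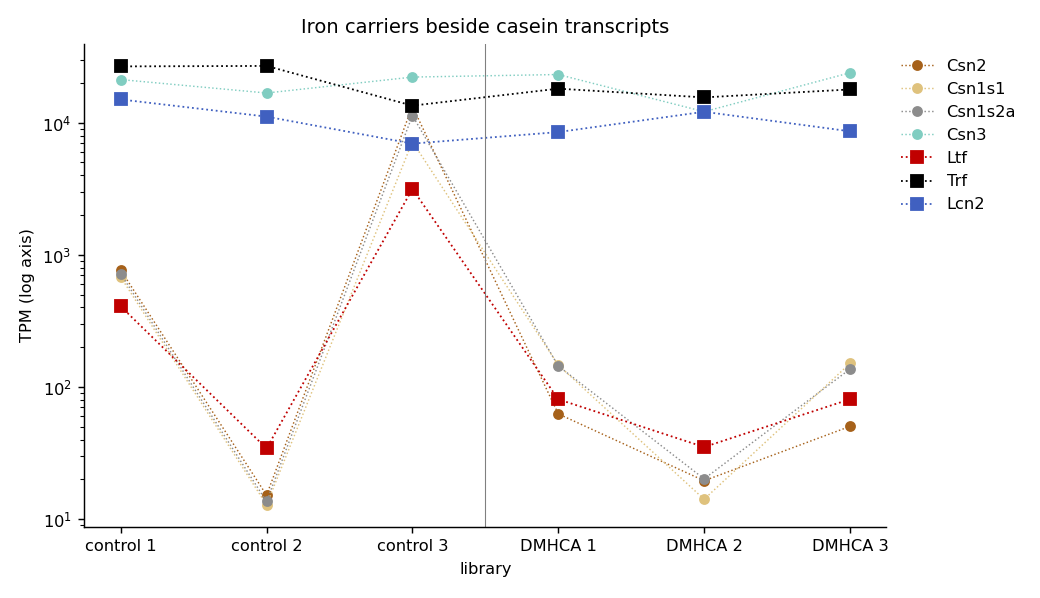
TPM (vertical axis, log scale) of the iron carriers Trf, Ltf and Lcn2 (squares) and of 4 casein genes (circles) in each library, with dotted lines joining the values of 1 gene and a vertical line between control and DMHCA. Ltf and the caseins Csn2, Csn1s1 and Csn1s2a peak in control library 3, where Trf and Lcn2 are at their lowest, 13459 and 6944 TPM.

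The 3 uptake genes differed in the sign of their fold change, and none passed the test. Tfrc (ENSMUSG00000022797, chromosome 16, 32608920 to 32632794), the transferrin receptor gene with 4 motif matches in its 3′ UTR, had 10326, 19011 and 5792 normalized counts in the control libraries and 13010.2, 8061 and 14586 in DMHCA libraries 1, 2 and 3. The DMHCA libraries were spread within the range of the controls. Its log2 fold change of -0.10 (standard error 0.53, 95% interval -1.38 to 1.17, adjusted p = 0.964) turned to 0.44 without control library 2 and to 0.24 in TPM, and 8 of 18 alternatives reversed its sign. Dividing cells are known to carry many transferrin receptors, and 3 of 6 proliferation markers, Mki67, Top2a and Aurka, lay higher in both DMHCA samples than in all controls, as did 13.8% of all genes. The 6 markers summed to 167 to 384 TPM in controls and 446 to 613 TPM after DMHCA, and their part in the values of Tfrc was not tested. The ratio of Trf to Tfrc in TPM was 388, 290.1 and 366 in control libraries 1, 2 and 3 and 212, 259 and 190.5 in DMHCA libraries 1, 2 and 3, lower in every DMHCA library than in any control. In normalized counts that ratio overlapped, since DMHCA library 2 lay above control library 2.

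Slc11a2 (ENSMUSG00000023030, chromosome 15, 100387898 to 100425072) encodes DMT1, which passes ferrous iron out of the endosome or in from the gut. It had 1703, 1278 and 1433 normalized counts in the control libraries and 2859.5, 1849 and 2948 in DMHCA libraries 1, 2 and 3. Every DMHCA library exceeded every control, though DMHCA library 2 did so by little. Slc11a2 had a log2 change of 0.69 (standard error 0.30, 95% interval -0.02 to 1.40, unadjusted p = 0.0549, adjusted p = 0.644 by edgeR), and it ranged from 0.60 to 1.02 when single libraries were dropped. Exons of Slc11a2 overlap those of Gm5475 on the opposite strand, which held at most 15 counts.

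Steap4 (ENSMUSG00000012428, chromosome 5, 7960457 to 7982213) encodes a metalloreductase that readies iron and copper for transport. It had 1093, 439 and 2325 normalized counts in the control libraries and 495, 357 and 457 in DMHCA libraries 1, 2 and 3. Control library 2 lay among the DMHCA libraries, and control library 3 was the highest, as for Ltf. For Steap4 the log2 fold change was -1.62 (standard error 0.69, 95% interval -3.29 to 0.04, unadjusted p = 0.0541, adjusted p = 0.644 by edgeR) and -0.88 without control library 3. Adipocyte markers, from cells that are known to express Steap4, were likewise highest in control library 3 (920 TPM) and lowest among controls in library 2 (124 TPM). Their part in the values of Steap4 was not tested.

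Ireb2 (ENSMUSG00000032293, chromosome 9, 54863789 to 54912530), which encodes the regulator that binds the hairpins printed above, varied least among controls of the 10 genes. Its normalized counts were 4672, 4768 and 4981 in the control libraries and 5677, 4084 and 5624 in DMHCA libraries 1, 2 and 3. The DMHCA samples lay on both sides of the controls. No direction was resolved, with a log2 fold change of 0.02 (standard error 0.26, 95% interval -0.59 to 0.63, adjusted p = 0.987), and the sign was reversed in 3 of 18 alternatives. The transcripts with a 5′ match, Fth1, Slc40a1 and Ftl1, had log2 fold changes of -2.06, -0.997 and 0.10, and Tfrc, with the 3′ matches, had -0.10.

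The rest of the pathway was read from 6 lists with 56 symbols, of which 52 were tested. An adjusted p under 0.05 was given to 0 of the 52, as to 0% of all genes. An unadjusted p under 0.05 was given to 4 of the 52, as to 7.61% of all genes in either direction. The 4 are Hp, Cp, Slc39a14 and Steap3, and all were lower with DMHCA, where 4.08% of all genes were. Without overlap between the groups, 5 of the 52 lay higher and 9 lower, where 13.8% and 12.2% of all genes did. The median log2 fold change of the 52 was -0.25, against -0.03 over all genes tested. Hamp and Hamp2 (hepcidin genes) and Ftmt (mitochondrial ferritin) did not pass the filter on low counts, with Ftmt at 0 TPM in every library, and Hfe2 is an older symbol of Hjv, which is in the files.

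Ferroxidases and metalloreductases had a median of -1.60 over 7 genes, which is the value of Hephl1 (standard error 1.85), a gene that overlapped. Of the 7 genes 2 were lower with an unadjusted p under 0.05, as were 4.08% of all genes. Cp encodes ceruloplasmin, the copper ferroxidase that works with ferroportin. It had 39968, 28636 and 68399 normalized counts in the control libraries and 8688, 12280.2 and 7561 in DMHCA libraries 1, 2 and 3, with no overlap. Cp had a log2 fold change estimated at -2.16 (standard error 0.49, 95% interval -3.35 to -0.98, unadjusted p = 0.00382, adjusted p = 0.644 by edgeR), and -1.75 without control library 3. DESeq2 called Cp on the 5 samples (adjusted p = 0.00671) and on the 6 libraries (adjusted p = 2.32e-05). Steap3, the endosomal ferrireductase, had 3826, 6485 and 1899.9 normalized counts in the control libraries and 918, 1939 and 836 in DMHCA libraries 1, 2 and 3, with a log2 difference of -1.53 (standard error 0.60, unadjusted p = 0.039). Control library 3 and DMHCA library 2 were nearly level in Steap3, as they were in Slc40a1.

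Among heme genes, Hp (haptoglobin, which captures free hemoglobin) had 1231, 1134 and 5425 normalized counts in the control libraries and 204, 168 and 185 in DMHCA libraries 1, 2 and 3. All controls lay well above all DMHCA libraries, and control library 3 above the other controls. On the log2 scale the change was -3.84 (standard error 0.85, 95% interval -5.86 to -1.81, unadjusted p = 0.00314, adjusted p = 0.644 by edgeR), and -2.71 without control library 3. DESeq2 called Hp on the 5 samples (adjusted p = 0.000279) and on the 6 libraries (adjusted p = 2.14e-07). Fat cells are a known source of haptoglobin, and the summed adipocyte markers given above were lower in every DMHCA library, as were 5 of the 6 by normalized counts, where 12.2% of all genes were, while Pparg overlapped. Their part in the values of Hp was not tested. For Flvcr1, a heme exporter, the log2 fold change came to -0.53 (standard error 0.34). Slc48a1, which releases heme from lysosomes, had one of 0.40 (standard error 0.25). The heme oxygenase gene Hmox1 overlapped, with 3001 to 4686 normalized counts in controls and 2592 to 4561 after DMHCA.

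Slc39a14 (ZIP14, an importer of iron that is not bound to transferrin) had 4039, 3381 and 6345 normalized counts in the control libraries and 2333, 2164 and 2183 in DMHCA libraries 1, 2 and 3, a log2 difference of -1.05 (standard error 0.34, unadjusted p = 0.0182). Slc22a17, a receptor for lipocalin 2, had one of 0.49 (standard error 0.32) and lay higher in both DMHCA samples than in any control. Aco1, which encodes the cytosolic aconitase that turns into the other hairpin-binding regulator when it loses its iron-sulfur cluster, had 3979, 4091 and 4929 normalized counts in the control libraries and 6878, 5651 and 6997 in DMHCA libraries 1, 2 and 3. The fitted log2 difference was 0.54 (standard error 0.25, 95% interval -0.06 to 1.14, unadjusted p = 0.0719). The 9 genes of mitochondrial iron and iron-sulfur clusters had a median of 0.16. An unadjusted p under 0.05 was given to 0 of them, and to 7.61% of all genes. Without overlap 2 lay higher and 1 lower, where 13.8% and 12.2% of all genes did.

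**Figure D5:**
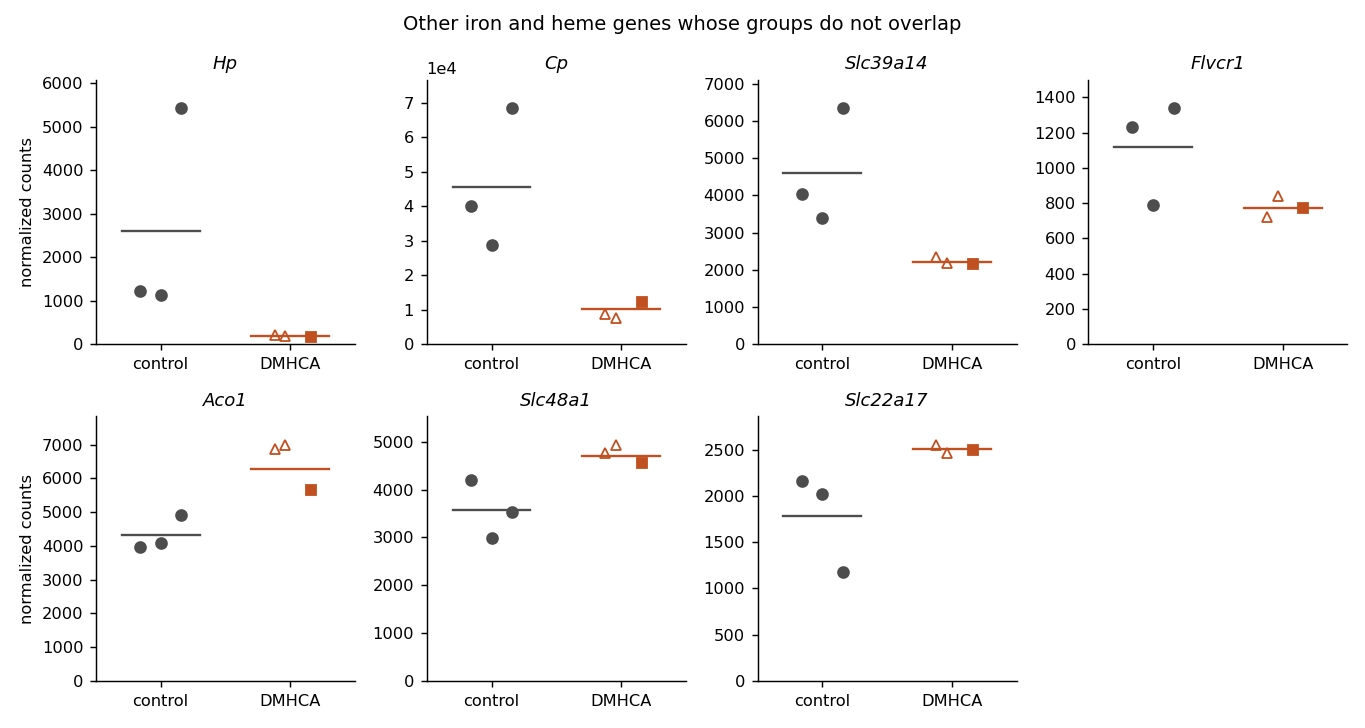
Normalized counts (vertical axes, from 0, each panel with its own scale) of 7 further iron and heme genes in control libraries 1 to 3 (circles), DMHCA libraries 1 and 3 (open triangles, counted as 1 sample) and DMHCA library 2 (squares), with lines at the means over samples. The genes were taken for the lack of overlap between samples, and in Flvcr1 DMHCA library 3 alone (841) exceeds control library 2 (792).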

How the data were processed

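Per the labels and the paper's methods, the authors checked reads with FastQC 0.11.9, trimmed adapters with Cutadapt 2.9 and counted paired-end reads with RSEM 1.3.1 on a Bowtie2 2.4.1 index of Ensembl mouse mm10. The authors deposited 1 table per library with RSEM's expected counts, TPM and FPKM of 55385 genes. FPKM, which the authors' run of RSEM divided by length and depth, was not used. Expected counts were rounded to whole numbers and summed to 46358654 to 63420620 per library. The other deposited values, mean transcript lengths in bases, are described for Trf and Ltf. The strand setting is not given in the sources used here.

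DMHCA libraries 1 and 3 were summed because they varied beyond sampling far less than any other pair (a biological coefficient of variation below 0.1, and below that of each other pair by over 5 times). The 5 samples were compared with edgeR 4.0.16 (R 4.3.3) by TMM, filterByExpr (minimum count 10, minimum total 15) and quasi-likelihood F-tests, p-values being adjusted over 19427 genes by Benjamini and Hochberg's method. Each standard error is the size of the log2 fold change over the root of F. Alternatives were DESeq2 1.42.0, limma 3.58.1 on log2(TPM + 1), other scalings and filters, and left-out libraries. Positions are from GENCODE M21 (GRCm38), which held 99.6% of the genes.

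The 10 genes and all lists were chosen with earlier results of these data known. All 10 genes are named. Of the other iron genes, the 4 in each direction with the smallest p, no overlap and at least 100 normalized counts on average are named, except 1 gene that is not reported here, with Steap3, Hmox1, Hephl1 and genes that failed the filter added after their values were seen, and the 5 genes most like Trf. Tables were handled with pandas 2.3.3 in Python 3.11.15 and plotted with matplotlib 3.10.9.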

Additional observations from a re-analysis of the deposited data

How the results depend on the processing

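Under the 18 alternatives, Trf, Ltf, Lcn2, Fth1, Slc40a1, Slc11a2 and Steap4 kept the sign of their log2 fold change, and Fth1 in DESeq2 on the 6 libraries was the only one of the 10 genes to pass an adjusted p of 0.05. Tfrc turned to 0.0076 in edgeR and 0.0202 in DESeq2 on the 6 libraries, to 0.14 with the replicate block, to 0.24 in limma on log2(TPM + 1) with and without a filter, to 0.25 on log2(TPM + 0.1), and to 0.44 and 0.27 without control library 2 or DMHCA library 2, and was -0.43 without control library 3. Ftl1 turned to -0.0184 without control library 2 and was 0.48 without DMHCA library 2. Ireb2 turned to -0.0373 with a mean of at least 100 counts, to -0.0085 without control library 1 and to -0.0030 without DMHCA library 1. In limma on TPM the median of all genes moved from -0.03 to 0.11, to 0.16 with the smaller pseudocount and to -0.0048 without a filter, and in DESeq2 on the 5 samples to -0.19.

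Genes with an adjusted p under 0.05 numbered 244 in DESeq2 on the 5 samples, 887 in DESeq2 on the 6 libraries and 16 without a filter on low counts, against 0 in edgeR on the 5 samples. Among the 10 iron genes they numbered 1 in DESeq2 on the 6 libraries, and among the other iron genes 2 (Hp and Cp), 3 (with Steap3) and 1 (Hp) in these fits. Genes with an unadjusted p under 0.05 numbered 2370 and 3652 in DESeq2 on the 5 samples and 6 libraries, 2912 in edgeR on the 6 libraries, 3207 there with the replicate block and 2808 without a filter, against 1478. They ranged from 918, without DMHCA library 2, to 1800.0, without control library 2. For the 10 genes that number was 5 in both tools on the 6 libraries and 1 in each limma fit, against 3, and 2 to 4 as libraries were left out. For the other iron genes it was 7 and 10 in DESeq2, 8 in edgeR on the 6 libraries, 9 with the replicate block and 7 without a filter, against 4, and 3 to 7 as libraries were left out. Without DMHCA library 2, 1 DMHCA sample is left and is assumed to vary like the controls. Unadjusted p then was 0.0807 for Fth1 and 0.174 for Ltf.

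The labels number the control and DMHCA libraries alike, but the animals differ. Deviations of same-numbered libraries from their group means correlated at -0.03 to 0.32 across genes, and of other pairs at -0.36 to 0.31, so the numbers were not taken as pairs. With the replicate block, 0 of the 10 genes passed an adjusted p of 0.05 in edgeR.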
